A study of Mus musculus with 3 samples.

Results

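The Myc, Max and Mxd network is a family of transcription factors that share a basic helix-loop-helix leucine zipper and compete for a common partner. Its 10 members here are Myc, Mycn, Mycl1, Max, Mxd1, Mxd3, Mxd4, Mxi1, Mnt and Mlx, chosen by gene name among the array's non-control probes. They are covered by 12 probes on 13 spots, of 34779 names, 55681 probes and 59305 spots in all. Mycl1 stands in the files under its current symbol Mycl. The cells studied, called HoxA9-Meis1 AML cells after a pair of homeobox factors, are a mouse leukaemia of the acute myeloid type, of strain C57Bl/6, taken from bone marrow and kept in SFEM medium. The groups were cells exposed to 3.4 µM of Pyrydopyrazine A2 (A2), cells exposed to all-trans retinoic acid and a 1α-hydroxy vitamin D3 at 10 µM each (RA plus D3V), and untreated cells. Every culture was sampled at 24 h, and the purpose the labels give is to set the expression signature of each treatment against that of untreated cells. How Hoxa9 and Meis1 were introduced, whether the line is 1 clone, and whether untreated cells received a vehicle are not given in the sources used here.

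Each condition has a single array, so nothing here is checked by replicates, no test across samples was run and all differences are those of single arrays. The treatment labels are also in doubt. By rank over all spots, the deposited value table's column for RA plus D3V matches the scanner file labelled A2, and the reverse holds for its column for A2 (Spearman's rho of 1 for both). The labels of the scanner files are used throughout, and every direction given for a treatment is that of the array so labelled. Figures from the value table follow these labels too. Those given for A2 come from its column for RA plus D3V, and the reverse. The value table's control column matches no scanner file (rho of 0.936 with the untreated array) and served as another control of unstated origin. Between the controls, log2 differences had an SD of 0.491 for 25032 probes above background and 0.209 for the brighter 12516 of them. Of these probes 663 (2.65%) lay at least 2-fold apart over all and 28 (0.224%) over the brighter ones. Spots of the same probe scattered by a typical log2 SD of 0.0606 with A2, 0.0674 with RA plus D3V and 0.0703 untreated (medians over probes with 10 spots). Between 46.0% and 46.8% of spots were well above background on each array, and 0 were saturated. The arrays came from 1 slide and 1 scan date.

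Myc and its relatives Mycn and Mycl bind DNA as a dimer with Max at the E-box, the letters CACGTG, and activate genes of ribosome assembly, nucleotide synthesis and cell growth. The Mxd proteins (Mxd1, Mxd3, Mxd4 and Mxi1) and Mnt also pair with Max, bind the same letters and recruit Sin3 and histone deacetylases to silence transcription. Mlx takes the place of Max in dimers with the glucose-responsive factors Mlxip and Mlxipl and with some Mxd proteins. In myeloid cells Myc is known to be high during proliferation and Mxd1 to be induced as cells mature.

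The stretches of probe that carry the results below are shown first, because each value is the brightness of such an oligonucleotide. They are 30 bases of a 60-base probe in build mm9, printed 5′ to 3′ on the gene's strand, and the capitals mark the bases that both Mxd4 probes share. The Myc stretch lies at chr15:61821417-61821446 on the plus strand. The Mxd1 stretches lie at chr6:86599083-86599112 and chr6:86597220-86597249, the Mxd4 stretches at chr5:34519323-34519352 and chr5:34519306-34519335, all on the minus strand. The Mnt stretch lies at chr11:74658915-74658944 on the plus strand.
Myc: aacagttgaaacacaaactcgaacagcttc
Mxd1, probe 1: gacaccgccattctctgtgctttcattgtt
Mxd1, probe 2: cgcgggtgaagaatgagaagcgcgtttcca
Mxd4, probe 1: atcattccagaagtattAAATATCATTTCT
Mxd4, probe 2: AAATATCATTTCTacaaatctcggcaggat
Mnt: aaagaggtggcccttgtttacagtgaggac
The 13 bases in capitals end probe 1 of Mxd4 and begin its probe 2, so these probes overlap and are not independent readings. The Mxd1 probes do not overlap. The exon or untranslated region under each probe is not given, because no annotation of build mm9 was used. The longest run of alternating G and T in any member's probe was 5 bases.

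On the array labelled A2, Myc itself was lower and the repressors Mxd4 and Mnt were higher than on the untreated array, while Max and Mlx stayed within 2-fold. On the RA plus D3V array the repressors Mxd4 and Mxd1 were higher, Mxd3 was lower, and Myc was lower by less than 2-fold. Of the 12 probes, 9 probes of 7 genes were well above background on all 3 arrays, and the probes of Mycn, Mycl and Mxi1 were above it on none. Levels are given as the log2 of a probe's signal over the array's 75th percentile, and differences are on the same log2 scale. Because the RNA is from bulk cultures, fewer cells of a type and less RNA per cell cannot be told apart. A probe counts as higher or lower where both arrays detected it well above background and its levels were at least 2-fold apart.

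Against the untreated array, 3 of the 9 measured probes were higher on the array labelled A2 (both of Mxd4 and that of Mnt) and 1 was lower (Myc). Among all 23460 probes measured in that comparison, 7.82% were higher and 6.24% were lower. On the RA plus D3V array 4 of the 9 probes were higher (both of Mxd4 and both of Mxd1) and 1 was lower (Mxd3), beside 8.14% higher and 4.76% lower among 23477 probes. By gene, 2 of 7 measured members were higher in each comparison and 1 was lower. The share higher lay above the background share in both, while 1 lower gene cannot be read against it. The median difference of the 9 probes was 0.16 on the A2 array and 0.97 on the RA plus D3V array, against -0.03 and -0.01 over all probes. This probe median counts Mxd1 and Mxd4 by both their probes. With 1 probe per gene the median of the 7 genes was 0.06 for A2, with 4 above 0 and 3 below, and -0.13 for RA plus D3V, with 3 above 0 and 4 below, so the RA plus D3V median changed sign. Both comparisons use the same untreated array, so they are not independent of each other.

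**Figure D1:**
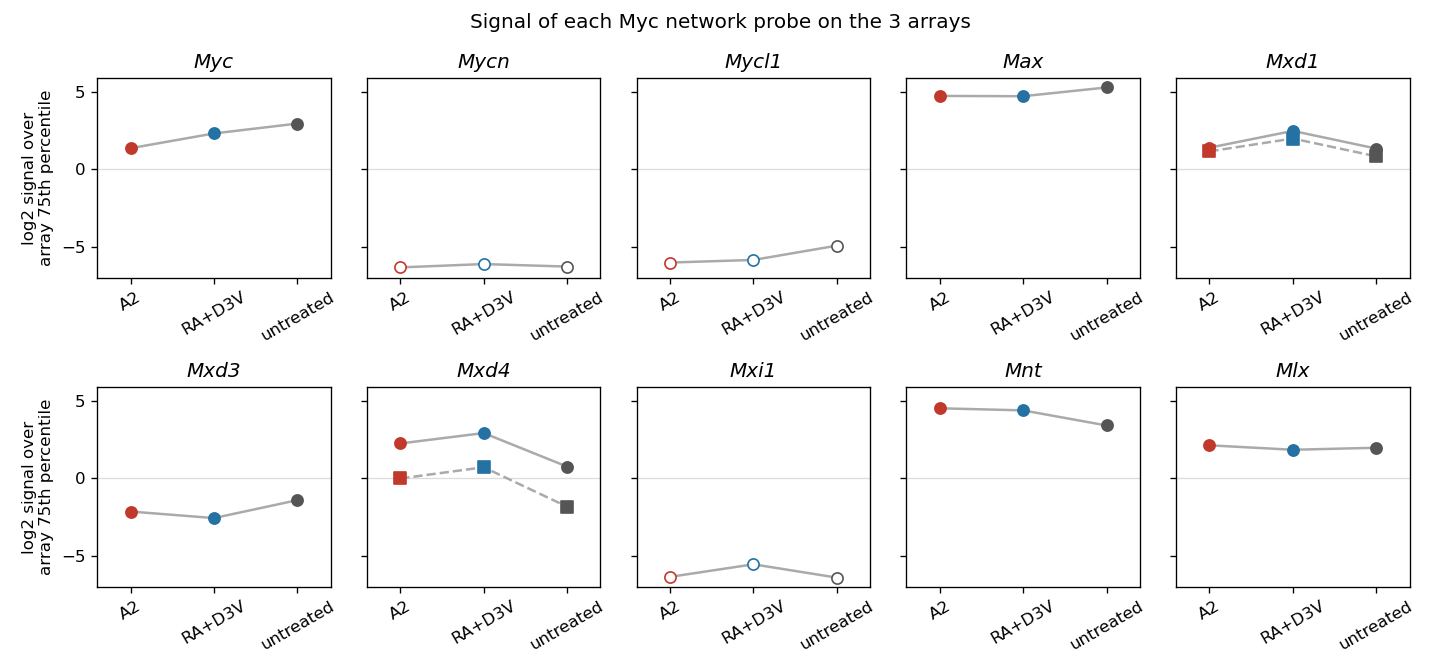
Log2 signal over the array's 75th percentile (y axis) of each member's probes on the arrays labelled A2, RA+D3V and untreated (x axis), 1 panel per gene. Filled points were well above background, open points were not, and squares on dashed lines mark the other probe of Mxd1 and Mxd4. Myc lies lowest on the A2 array at 1.36, and both Mxd4 probes lie lowest on the untreated array.

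Myc had a level of 1.36 on the array labelled A2, 2.31 on the RA plus D3V array and 2.95 on the untreated array. Myc signal was therefore lowest with A2, intermediate with RA plus D3V and highest without treatment. Its probe is printed on a pair of spots, which read 676 and 737 on the A2 array, 1428 and 1467 on the RA plus D3V array and 2754 and 2792 on the untreated array, in intensity units before scaling. The scatter of these spots is technical and gives no spread between cultures. The Myc difference between A2 and untreated was -1.59, a level 3.01-fold lower, and the spots taken one at a time gave -1.64 and -1.54. Only 1.79% of the probes measured in that comparison were as low or lower. This Myc difference was at least 2-fold under all 6 alternative settings, with a range from -1.59 to -1.34.

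For RA plus D3V the Myc difference from untreated was -0.64, a level 1.56-fold lower, and 13.2% of all measured probes were as low or lower. Against the other control source it was -0.26, and Myc differed by 0.28 between the controls themselves, so the size of this smaller difference depends on which control is used. Between the treated arrays the Myc difference (A2 minus RA plus D3V) was -0.95, a level 1.93-fold lower with A2, and this difference passed 2-fold under 1 of 5 alternatives. The order of the 3 Myc levels was the same in all of them.

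The relatives of Myc gave no signal above background. Mycn, best known from the developing nervous system, read -6.32 on the A2 array, -6.10 on the RA plus D3V array and -6.26 on the untreated array. Mycl, the Myc relative first found in lung cancer, read -6.00, -5.84 and -4.91 in the same order. Both genes were not well above background on any array, so no fold is given for them.

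Max, a partner of Myc, Mxd and Mnt proteins, had a level of 4.73 on the A2 array, 4.72 on the RA plus D3V array and 5.28 on the untreated array. Max was thus slightly lower on both treated arrays, at nearly equal levels. The Max differences were -0.55 for A2 and -0.56 for RA plus D3V, which lay beyond the 0.12 by which the controls differed but within 2-fold. Mlx, the partner of Mlxip and Mlxipl, had a level of 2.13 with A2, 1.84 with RA plus D3V and 1.97 untreated. The differences of Mlx from untreated were 0.16 and -0.13, both smaller than the SD between the controls over brighter probes.

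Mxd4, a repressor of the Mxd family described in differentiating cells, had the largest positive differences of the measured members. Its probe 1 had a level of 2.25 on the A2 array, 2.92 on the RA plus D3V array and 0.76 on the untreated array. Its probe 2 had a level of -0.01 on the A2 array, 0.72 on the RA plus D3V array and -1.82 on the untreated array. Both probes ranked the arrays alike, with RA plus D3V highest and untreated lowest. The difference between A2 and untreated was 1.49 (2.81-fold higher) for probe 1 and 1.82 (3.52-fold higher) for probe 2. For RA plus D3V the Mxd4 differences from untreated were 2.16 (4.47-fold higher) and 2.54 (5.81-fold higher), and 0.852% and 0.434% of all measured probes were as high. The Mxd4 probes differed between the controls by -0.12 and 0.45, which is less than any of these differences. Probe 2 was dim on the untreated array, and the size of its differences depended on the setting. They ranged from 1.32 to 2.17 for A2 and from 1.94 to 2.91 for RA plus D3V. Between the treated arrays the Mxd4 differences (A2 minus RA plus D3V) were -0.67 and -0.72, within 2-fold.

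Mxd1, the Mxd protein best known from maturing myeloid cells, differed on 1 of the treated arrays. Its probe 1 had a level of 1.40 on the A2 array, 2.48 on the RA plus D3V array and 1.34 on the untreated array. Its probe 2 had a level of 1.16 on the A2 array, 1.99 on the RA plus D3V array and 0.84 on the untreated array. On both probes RA plus D3V stood above the other arrays. The Mxd1 differences between RA plus D3V and untreated were 1.14 and 1.15, or 2.20-fold and 2.22-fold higher. With the other control source, the value for probe 2 was 0.86, below 2-fold. The differences of Mxd1 between A2 and untreated were 0.06 and 0.32, no larger than the 0.32 by which the controls differed on probe 2 of the gene.

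Mxd1 was also the only member at least 2-fold apart between the treated arrays. The difference (A2 minus RA plus D3V) was -1.08 on its probe 1, a level 2.12-fold lower with A2, and -0.83 on its probe 2. Over all 24018 probes measured on both treated arrays, 3.54% were at least 2-fold higher with A2 and 4.31% were lower. With normexp background correction, a model of signal plus background, the probe 1 difference was just under 2-fold.

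Mxd3, a Mxd protein found mainly in cycling cells, was the 1 repressor of the network that was lower after treatment. The Mxd3 level was -2.14 on the A2 array, -2.56 on the RA plus D3V array and -1.40 on the untreated array. Mxd3 was lowest with RA plus D3V, with A2 between. Its difference from untreated was -1.16 (2.23-fold lower) for RA plus D3V and -0.73 for A2. This is a dim probe, and under normexp background correction the Mxd3 differences were -0.49 for RA plus D3V and -0.27 for A2, so the 2-fold call was lost. The remaining Mxd gene, Mxi1, read -6.35 on the A2 array, -5.54 on the RA plus D3V array and -6.40 on the untreated array, and was not well above background on any of them.

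Mnt, the broadly expressed repressor that competes with Myc for Max, passed 2-fold with A2 and lay just under it with RA plus D3V. Its level was 4.52 on the A2 array, 4.38 on the RA plus D3V array and 3.41 on the untreated array. The Mnt levels of the treated arrays lay close together and above the untreated one. The difference from untreated was 1.11 (2.15-fold higher) for A2 and 0.97 (1.96-fold higher) for RA plus D3V. The A2 value was at least 2-fold under all 6 alternatives and the RA plus D3V value under 2 of 6. Between the treated arrays Mnt differed by 0.14, and between the controls by -0.10.

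**Figure D2:**
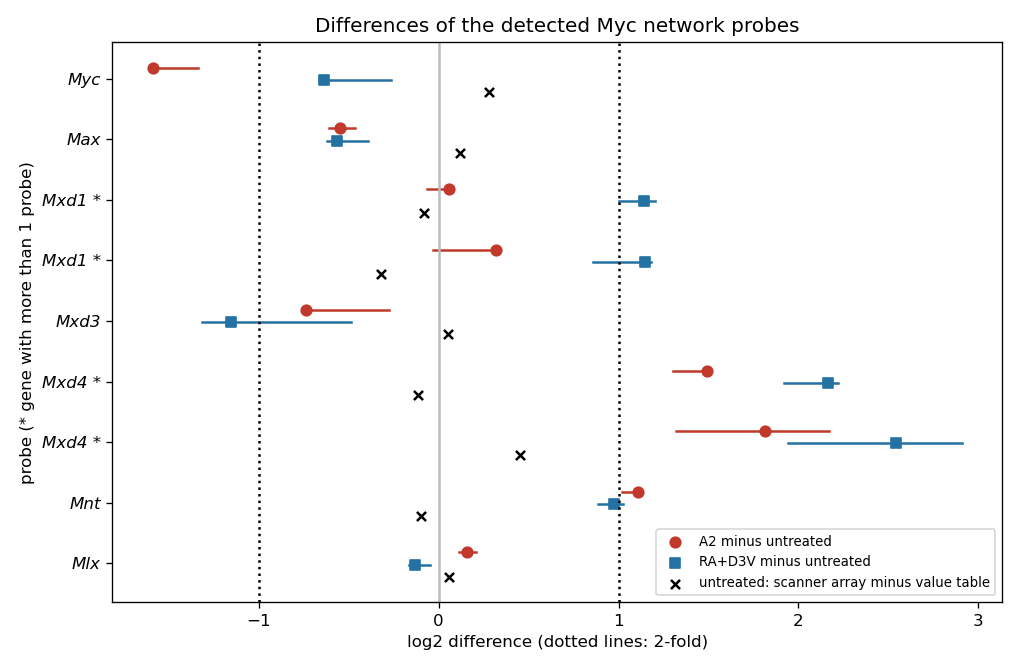
Log2 differences (x axis) of the 9 member probes above background on all arrays (y axis). Red circles are A2 minus untreated, blue squares RA+D3V minus untreated, and bars span the values under the alternative settings; crosses are the difference between the control sources, and dotted lines mark 2-fold. Myc lies at -1.59 for A2 and -0.64 for RA+D3V, and the Mxd4 probes lie between 1.49 and 2.54 in both comparisons.

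Promoters were searched for the E-box, since members are known to bind it and several of them differed together. The letters CACGTG read the same on both strands and overlap no other motif searched. Of the 9 members with a promoter in the RefSeq table (build GRCm38.p6, 250 bases before to 50 after the start site), 4 held it, a share of 44.4%. Over all 27025 genes with a promoter in the table the share was 8.09%. Windows of 60 bases around each match are shown 5′ to 3′ on the gene's strand with the E-box in capitals. The match of Max begins 3 bases before the start site (window chr12:76962219-76962278, minus strand), that of Mlx 40 bases before it (chr11:101087223-101087282, plus strand), that of Mnt 123 bases before it (chr11:74830774-74830833, plus strand) and that of Mxd4 219 bases before it (chr5:34187897-34187956, minus strand).
Mxd4: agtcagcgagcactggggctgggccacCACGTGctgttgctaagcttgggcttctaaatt
Mnt: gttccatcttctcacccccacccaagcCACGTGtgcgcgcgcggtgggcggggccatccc
Max: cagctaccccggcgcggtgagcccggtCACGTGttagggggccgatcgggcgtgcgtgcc
Mlx: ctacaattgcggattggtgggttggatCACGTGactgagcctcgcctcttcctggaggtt
The promoters of Mxd4 and Mnt, the genes higher with A2, both held the letters, and so did those of Max and Mlx, which stayed within 2-fold. The windows of Mxd1, Mxd3, Mxi1, Mycl and Mycn did not hold them. Myc itself has no promoter in the RefSeq table and was not searched. A match describes the sequence and is no measure of binding in these cells.

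Genes known to be activated by Myc, a list of 40 that act in ribosome assembly, nucleotide synthesis and other parts of growth, lay mostly lower with A2 than untreated. Of the 39 measured genes, 12 were at least 2-fold lower with A2 than untreated and 2 were higher, beside 6.46% lower and 7.91% higher among all 17272 genes. Their median difference was -0.72, with 36 of 39 below 0, against -0.03 over all genes. The lowest were Gart, an enzyme of purine synthesis, at -1.96, Pa2g4, a growth-regulated RNA-binding protein, at -1.65, Rrp9, a component of the U3 snoRNP, at -1.51, and Nop58, a core protein of snoRNPs, at -1.48. Another probe of Gart gave -1.02 and one of Pa2g4 gave -1.40. The genes higher with A2 were Ccnd2, which encodes cyclin D2, at 2.71 and Ldha, lactate dehydrogenase A, at 1.38, with 2.17 and 2.37 on its other probes. Tert, the telomerase subunit, was above background on the A2 array and not on the others, at least 1.14-fold higher than untreated. The value table with its own control gave -0.49 for Tert with A2, so no direction is drawn from it.

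With RA plus D3V the same list had a median nearer to 0. Of the 39 genes, 1 was lower and 1 was higher than untreated, beside 5.04% lower and 7.82% higher among all genes. The median was -0.40, with 31 of 39 below 0, against -0.02 over all genes. The lower gene was Odc1, the first enzyme of polyamine synthesis. Odc1 had a level of 5.91 with A2, 5.90 with RA plus D3V and 6.97 untreated, and its difference from untreated was -1.07 on both treated arrays. The higher gene was Cad, an enzyme of pyrimidine synthesis measured by a single probe, with levels of -3.42 with A2, -0.43 with RA plus D3V and -2.11 untreated. Cad therefore differed in opposite directions, by -1.31 for A2 and 1.69 for RA plus D3V. Its probe was dim on the A2 array. The value table with its own control gave -0.98 for A2, below 2-fold, and 1.75 for RA plus D3V.

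The direct difference between A2 and RA plus D3V had a median of -0.35 over the list. Gart had a level of 0.41 with A2, 1.97 with RA plus D3V and 2.37 untreated, so that most of its difference was seen on the A2 array. Ccnd2 had levels of 6.07 with A2, 4.01 with RA plus D3V and 3.37 untreated. The E-box letters were in the promoters of 9 of the 35 listed genes in the RefSeq table (25.7%).

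**Figure D3:**
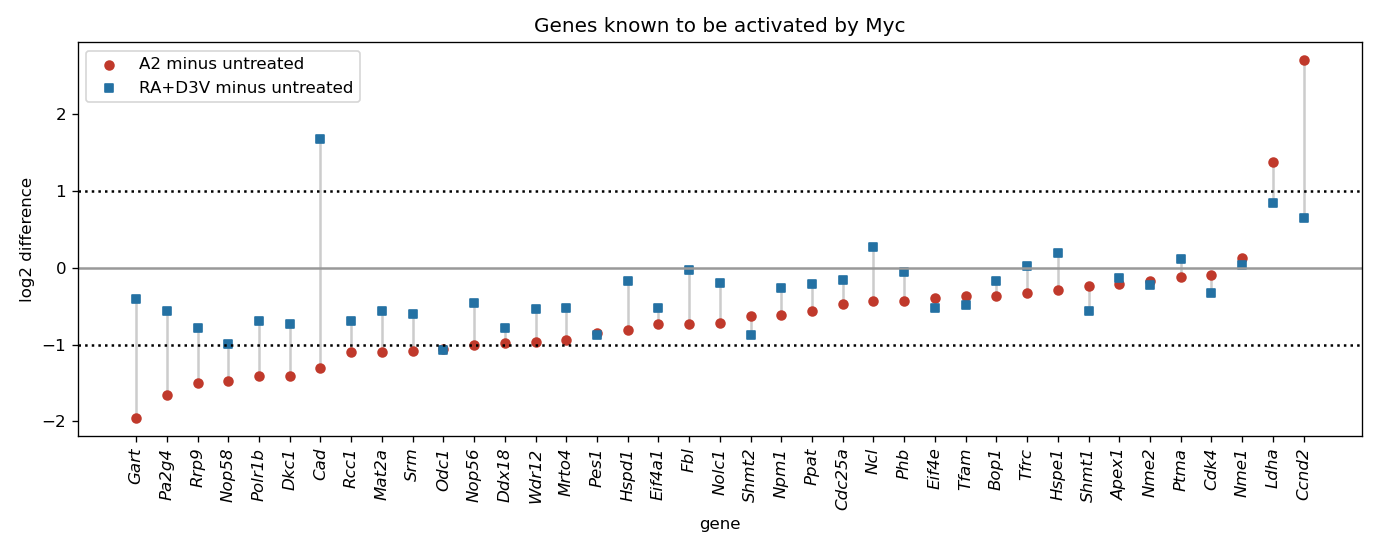
Log2 difference from untreated (y axis) of the 39 measured genes of the list known to be activated by Myc (x axis), ordered by the A2 value. Red circles are A2, blue squares RA+D3V, and dotted lines mark 2-fold. Most points lie below 0, and Cad at 1.69 with RA+D3V and Ccnd2 at 2.71 with A2 stand above.

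Genes known to be repressed by Myc went in both directions. With A2, 4 of the 13 measured genes of the 16 listed were at least 2-fold higher and 3 were lower, beside 7.91% and 6.46% among all genes, with a median of 0.12. The higher ones were Thbs1 (thrombospondin 1) at 2.32, the Krüppel-like factor Klf2 at 1.73, the stress-response gene Gadd45a at 1.36 and Ndrg1, a gene of growth arrest, at 1.26. The lower ones were Ccnd1 (cyclin D1) at -3.19 and the cell-cycle inhibitors Cdkn2b at -1.71 and Cdkn1a at -1.05. The other Cdkn1a probes gave values between -0.73 and 0.24, so its call rests on 1 probe. The list includes the cyclin Ccnd1, which promotes the cell cycle, beside inhibitors of it.

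With RA plus D3V 4 of these 13 genes were higher and 0 were lower than untreated, beside 7.82% and 5.04% among all genes, with a median of 0.49. They were Klf4 at 2.28, Ndrg1 at 2.13, Thbs1 at 1.66 and Klf2 at 1.18. Klf4, another Krüppel-like factor, had a level of -1.33 with A2, 1.69 with RA plus D3V and -0.59 untreated. Ccnd1 had a level of 1.49 with A2, 4.24 with RA plus D3V and 4.68 untreated, so the low value was that of the A2 array. Cdkn1a differed from untreated by 0.81 with RA plus D3V on the probe used and by 2.35 to 2.68 on its other probes. Col1a1 (collagen I), above background with A2 and not untreated, was at least 4.72-fold higher. Ndrg2, a relative of Ndrg1, was above background on both treated arrays and not untreated, at least 1.98-fold higher with A2 and at least 2.09-fold higher with RA plus D3V.

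**Figure D4:**
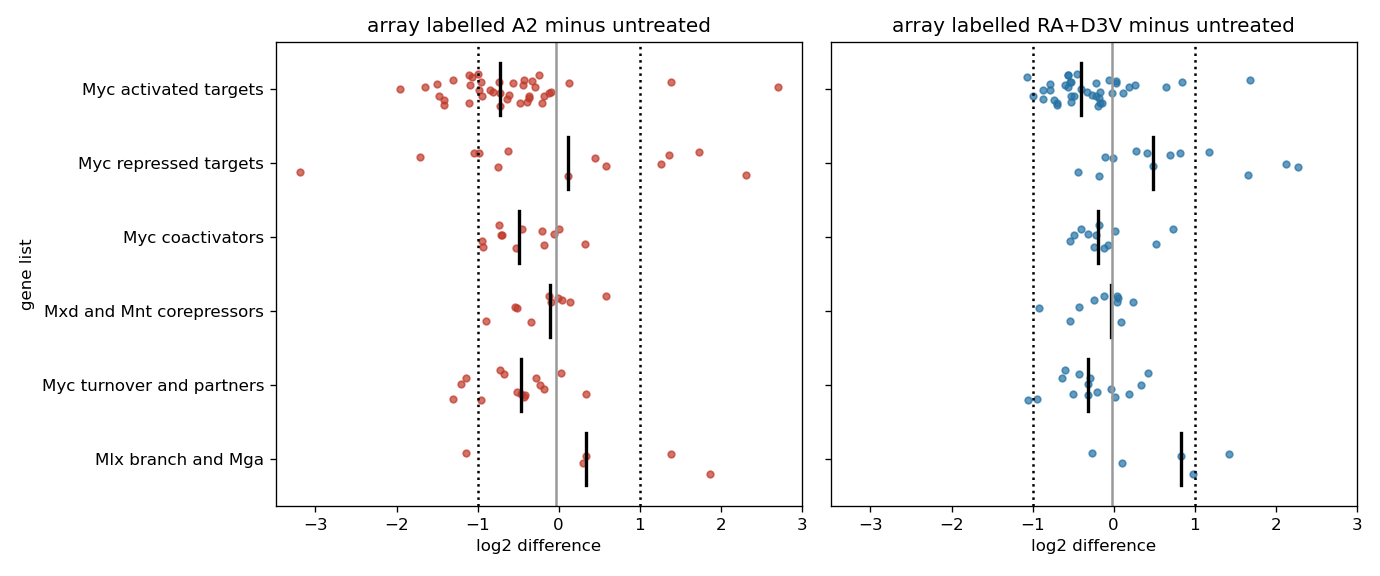
Log2 difference from untreated (x axis) of every measured gene in 6 lists (y axis), for the array labelled A2 (left) and the array labelled RA+D3V (right). Black bars are list medians, the grey line is the median of all genes and dotted lines mark 2-fold. The list of genes known to be activated by Myc has its median at -0.72 on the left and -0.40 on the right.

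The transcripts of the proteins that the network works through stayed mostly within 2-fold. Of the Sin3 and histone deacetylase corepressors of Mxd and Mnt, all 10 were measured and 0 were higher or lower on either treated array, with medians of -0.10 for A2 and -0.03 for RA plus D3V on the 1 probe used per gene. Other probes passed 2-fold for Rbbp4, a histone-binding subunit, at -1.32 with A2 and -1.34 with RA plus D3V, and for Ncor1, a nuclear receptor corepressor, at up to 1.24 and 1.13. All 12 coactivators of Myc were measured and 0 reached 2-fold on the probe used, with medians of -0.48 for A2, where 10 of 12 lay below 0, and -0.20 for RA plus D3V. Another probe of the acetyltransferase gene Kat2a gave -1.01 with A2. Among 16 genes of Myc turnover and Myc partners 15 were measured and Zbtb17, the factor through which Myc represses genes, was not above background. With A2 3 of them were lower and 0 higher, with a median of -0.46, beside 6.46% lower among all genes. With RA plus D3V 1 of 15 was lower, with a median of -0.31, near the 5.04% lower among all genes. The lower ones with A2 were the F-box gene Btrc at -1.30, whose other probe gave 0.48, and the deubiquitinases Usp36 at -1.20, whose other detected probe gave -0.81, and Usp37 at -1.14. Usp37 gave -0.57 in the value table with its own control. With RA plus D3V it was the mitotic kinase Aurka at -1.05, while another probe of Mycbp, a Myc-binding protein, gave 1.11.

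The Mlx branch of the network was followed through Mlxip, Mlxipl, the related factor Mga, and the glucose-responsive targets Txnip and Arrdc4. With A2 2 of these 5 genes were higher and 1 was lower than untreated, beside 7.91% and 6.46% among all genes, with a median of 0.34. They were Arrdc4 at 1.87, Txnip at 1.38 and Mga at -1.14. In the value table with its own control Arrdc4 gave 1.24, Txnip 1.59 and Mga -0.36. Arrdc4 was dim on the untreated array, at a level of -3.08. With RA plus D3V Txnip alone was higher, at 1.42, beside 7.82% of all genes, and the list had a median of 0.83. Both medians are values of Mlxipl, whose other probe gave -0.14 with A2 and -2.13 with RA plus D3V. The direction of Mlxipl therefore depends on the probe. Txnip had a level of 3.11 with A2, 3.15 with RA plus D3V and 1.73 untreated, so that the treated arrays were alike.

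The genes whose pattern over the 3 arrays was most like that of Myc were taken by the distance between both differences from untreated, over 6649 genes in the upper part of the signal range. Capn2 lay nearest (distance 0.08), with differences of -1.67 for A2 and -0.62 for RA plus D3V. Pa2g4 (0.10), Snhg15 (0.14), Rrp9 (0.16) and Bend3 (0.17) followed, with differences between -1.65 and -1.43 for A2 and between -0.78 and -0.56 for RA plus D3V. With 3 arrays and a shared control, this likeness rests on 2 differences.

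Markers of the cell type named in the labels were present, since 10 of 11 myeloid leukaemia genes were above background on each array, Hoxa9 among them. The probe of Meis1 was above background on none. Markers of other cells of the bone marrow also differed between the arrays, as given here by the sum of their signals in multiples of the array's 75th percentile. The 8 megakaryocyte and platelet genes summed to 19.2 with A2, 25.1 with RA plus D3V and 1.19 untreated, of which 5, 5 and 4 were above background and Gp1ba, Gp9 and Itga2b were so on no array. The 8 B-cell genes summed to 29.4, 14.4 and 20.3 in that order, with 6 above background on each array and Igll1 and Pax5 on none. Blnk alone was at least 2-fold higher with A2 (3.16), 1 of 6 measured, beside 7.91% of all genes. With RA plus D3V 0 of 6 reached 2-fold, and Cd79b lay lowest at -0.64. The median difference of the 6 genes was 0.34 with A2 and 0.13 with RA plus D3V. The 10 genes of T and NK cells summed to 20.02, 14.9 and 20.2, with 7, 6 and 8 above background and Cd8a and Klrb1c on none. Of these, Cd2 (-1.81), Cd3d (-1.86) and Gzma (-2.09) were at least 2-fold lower with A2, 3 of 7 measured, beside 6.46% of all genes. With RA plus D3V Cd2 (-1.89) and Cd3d (-1.55) were at least 2-fold lower, 2 of 6 measured, beside 5.04%. The other measured genes of this list stayed within 2-fold on the probe used. Of them Cd4 (0.34) and Nkg7 (0.22, and -0.21 on its other probe) lay above untreated with A2, and Cd4 (0.28) with RA plus D3V. All 4 erythroid genes measured with A2 lay below untreated, 2 of them by at least 2-fold, with a median of -0.90. All 3 measured with RA plus D3V did too, with a median of -0.70, and Hbb-b1, a beta globin, differed by -1.06 with A2 and -1.10 with RA plus D3V. The bounds of this list went both ways. With A2 Epor was at least 1.69-fold and Klf1 at least 1.60-fold higher, and Alas2 at least 1.46-fold lower. With RA plus D3V Epor was at least 1.32-fold higher, Alas2 at least 1.27-fold lower and Car2 at least 4.42-fold lower. The value table with its own control gave -0.07 and -0.57 for Epor. The 8 genes of eosinophils, basophils and mast cells summed to 2.86, 2.54 and 1.84 (Cma1, Fcer1a and Ms4a2 on none). Of these, Il5ra was higher with A2 (1.46), 1 of 3 measured, beside 7.91% of all genes. Cpa3 went the other way, above background untreated and not with A2, at least 2.47-fold lower. With RA plus D3V 0 of 4 measured reached 2-fold, and Epx had a bound of at least 1.40-fold higher. The 8 stromal genes summed to 10.4, 11.2 and 6.70 (Cdh5, Col3a1 and Cxcl12 on none). The 11 myeloid genes summed to 862, 1006 and 1407, a sum in which Mpo (myeloperoxidase) differed by -2.22 with A2 and -1.57 with RA plus D3V. The median difference of the 10 measured myeloid genes was -0.09 with A2 and 0.28 with RA plus D3V, and Itgam was higher by 2.37 and 2.31. Col1a1 and Pdgfrb are in both the stromal list and the list of genes repressed by Myc. Cebpa is in both the myeloid list and the list of genes repressed by Myc. The part of any of these in the network's differences was not tested.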

How the data were processed

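RNA of 3 cultures (50 ng each, per the labels' protocols) was hybridised to 1-colour Cy3 arrays, 1 per condition. The scanner files hold intensity from Agilent Feature Extraction 11.5.1.1, per the submitters' processing notes. Per the file headers, the processed intensity has background and spatial trends removed and is not scaled across arrays. The deposited value table holds linear intensity, and its columns are quantile normalised, as 99.9% of sorted values are equal within 0.01%. Each column has a median of 17.4. The table is not centred, and how its control column was obtained is unknown.

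Control spots and 24 probes flagged as uneven were left out, leaving 55657. Processed signals were taken to log2, set to 0 at the 75th percentile of each array and averaged over spots of a probe. Genes were named from a RefSeq table by accession (27650 probes), symbol (3406) or synonym (321), and 24304 kept the file's name. Lists use the probe with the highest mean signal, and the A2 and RA plus D3V arrays were each set against the untreated one and against each other. A probe above background on 1 array has a bound, its signal over the larger of the other array's own signal and lowest detected signal there. All member probes are named, with up to 4 called genes each way and 2 bounds per list and array, and the 5 genes most like Myc. Further bounds are given where genes of a list went opposite ways. Members and lists were chosen with earlier results of these data known. With single arrays the number of arrays limits the precision. Steps were tested on simulated data. Alternatives were normexp (limma 3.58.1, R 4.3.3, offset 50), median scaling, quantile normalisation, brighter probes only, flagged spots kept, the value table, the mean of a gene's probes and a 1.5-fold threshold. Other work was in Python 3.11.15. A marker gene is not reported here.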

Additional observations from a re-analysis of the deposited data

How the results depend on the processing

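No called member difference was reversed, while the differences near 0 of Mxd1 (-0.07 and -0.03 for A2 in the value table) and Max (-0.07 between A2 and RA plus D3V after quantile normalisation) changed sign. Of 124 alternative counts 105 stayed within 1.5 times the value reported and 19 moved. Under normexp, lower calls were 0 for the network with RA plus D3V (1 as reported), 0 for the network between A2 and RA plus D3V (1), 1 for the cofactor lists with A2 (4) and 2 for Myc-activated genes with RA plus D3V (1). Median scaling gave 2 cofactor genes higher with RA plus D3V (1). Quantile normalisation gave 2 Myc-activated genes lower with RA plus D3V (1) and 2 network probes lower with A2 than with RA plus D3V (1). With brighter probes only, so with fewer probes tested, cofactor genes with A2 were 1 higher (2) and 0 lower (4), the network with RA plus D3V had 0 lower (1), and with RA plus D3V 0 Myc-activated (1) and 2 Myc-repressed genes (4) were higher. The value table with its own control gave, for RA plus D3V, 2 Myc-activated genes lower (1) and 2 cofactor genes each higher (1) and lower (1). Averaging a gene's probes gave 2 Myc-activated genes higher with RA plus D3V (1). The 1.5-fold threshold gave 2 network probes lower with A2 (1), 2 with RA plus D3V (1) and 5 between A2 and RA plus D3V (1). Apart from what these settings themselves remove or lower, the cause was not tested. The median of all genes stayed within 0.1 of 0 on the log2 scale in each setting. No paired analysis was possible because each condition has 1 array. Signal over background limits the dim probes, among the members that of Mxd3 and, on the untreated array, probe 2 of Mxd4.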
